A study of Mus musculus with 2 samples.

Results

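The regions described here are the 809 TOBF1 peaks on mouse chromosome 13, of 12181 peaks in the whole list and 11545 on the 19 autosomes. They were chosen by chromosome, because chromosome 13 carried the most peaks per Mb of any autosome in this list, so its density is a description and was not tested. TOBF1 (transient octamer binding factor 1) is a nuclear protein studied in mouse embryonic stem (ES) cells. Peaks came from 1 chromatin immunoprecipitation sequencing (ChIP-Seq) library of R1/E ES cells that carried a tagged TOBF1 gene on a bacterial artificial chromosome (BAC) and were grown with LIF and serum. Chromatin was cross-linked with formaldehyde and DSG and precipitated with an antibody against GFP. An input library of the same cells, made without antibody, has no file used here. The labels do not say how many clones were used. A peak list gives no marker levels with which to check the cell type.

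There was 1 library, so no value has a replicate error. Exact (Clopper-Pearson) 95% intervals are given for shares and cover counting error only, since neighbouring peaks are not independent. Read depth is unknown.

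Chromosome 13 of the mouse holds most of the replication-dependent histone genes, short genes without introns that supply histones while DNA is copied. Core histones (H2A, H2B, H3 and H4) form the nucleosome and H1 binds the linker DNA between nucleosomes. The same cluster holds many tRNA genes, which RNA polymerase III transcribes, and genes of vomeronasal receptors, which detect pheromones. Farther along lie clusters of KRAB zinc finger genes, whose products bind DNA and recruit repressors to transposable elements, with vomeronasal receptor pseudogenes between them. Such clusters arose by repeated duplication, and their copies resemble each other in sequence.

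Promoter windows that a peak overlapped show what these regions look like. Each is 300 bases from RefSeq (GRCm38.p6, positions as in mm10), 250 before the gene's start and 50 from it, read along the gene. Bases that a peak covered are in capitals. H2bc15 (a core histone H2B gene, chr13:21753826-21754125, plus strand) was, with its divergent neighbour H2ac15, a histone window that 1 peak covered whole, and H3c8 (a core histone H3 gene, chr13:23535168-23535467, plus strand) lay in the run with the most peaks.
H2bc15: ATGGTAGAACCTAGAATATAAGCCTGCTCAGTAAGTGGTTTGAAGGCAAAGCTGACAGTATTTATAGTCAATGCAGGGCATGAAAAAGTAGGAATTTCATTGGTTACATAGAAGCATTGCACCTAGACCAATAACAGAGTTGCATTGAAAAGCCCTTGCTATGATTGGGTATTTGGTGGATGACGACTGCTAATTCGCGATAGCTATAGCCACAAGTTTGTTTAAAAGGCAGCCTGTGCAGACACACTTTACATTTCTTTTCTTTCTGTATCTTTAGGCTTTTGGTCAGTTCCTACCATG
H3c8: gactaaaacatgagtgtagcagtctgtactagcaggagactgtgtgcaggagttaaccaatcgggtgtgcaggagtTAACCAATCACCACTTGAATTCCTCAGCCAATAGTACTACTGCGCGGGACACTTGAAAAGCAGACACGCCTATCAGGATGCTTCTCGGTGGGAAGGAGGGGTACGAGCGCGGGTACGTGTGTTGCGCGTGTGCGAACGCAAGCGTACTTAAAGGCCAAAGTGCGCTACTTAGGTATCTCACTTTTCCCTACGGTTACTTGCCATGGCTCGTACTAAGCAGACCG
Further windows carried strong peaks away from the histone genes. Fam169a (chr13:97067037-97067336, plus strand) lay in the bin from 97 to 98 Mb, and Gm40987 (a long noncoding RNA gene, chr13:65990947-65991246, minus strand) lay under the strongest peak of any promoter window of the chromosome in the table.
Fam169a: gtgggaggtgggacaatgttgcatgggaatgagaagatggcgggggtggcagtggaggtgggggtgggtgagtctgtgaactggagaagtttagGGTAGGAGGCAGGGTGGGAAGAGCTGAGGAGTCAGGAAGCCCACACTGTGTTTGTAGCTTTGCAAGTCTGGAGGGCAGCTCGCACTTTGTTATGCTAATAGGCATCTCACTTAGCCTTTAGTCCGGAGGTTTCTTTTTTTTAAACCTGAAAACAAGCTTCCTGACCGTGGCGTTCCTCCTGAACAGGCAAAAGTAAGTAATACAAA
Gm40987: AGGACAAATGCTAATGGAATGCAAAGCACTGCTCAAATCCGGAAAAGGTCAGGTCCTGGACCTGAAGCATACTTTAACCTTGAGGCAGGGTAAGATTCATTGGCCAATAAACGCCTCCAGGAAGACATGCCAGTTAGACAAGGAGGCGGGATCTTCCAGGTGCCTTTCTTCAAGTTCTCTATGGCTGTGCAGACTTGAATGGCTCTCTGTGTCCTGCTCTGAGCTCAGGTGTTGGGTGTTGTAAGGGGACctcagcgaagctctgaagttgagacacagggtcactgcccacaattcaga
The last windows show a family of near-copies between 65 and 67 Mb: 2410141K09Rik (chr13:66441069-66441368, minus strand), Gm45966 (chr13:66588919-66589218, plus strand) and Gm46425 (chr13:65950339-65950638, plus strand), which no peak overlapped.
2410141K09Rik: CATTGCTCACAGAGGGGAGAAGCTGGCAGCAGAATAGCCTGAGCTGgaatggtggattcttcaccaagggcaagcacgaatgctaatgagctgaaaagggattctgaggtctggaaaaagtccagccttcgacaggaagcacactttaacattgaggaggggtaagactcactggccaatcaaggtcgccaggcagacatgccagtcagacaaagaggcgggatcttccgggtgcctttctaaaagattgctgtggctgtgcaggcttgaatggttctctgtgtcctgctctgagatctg
Gm45966: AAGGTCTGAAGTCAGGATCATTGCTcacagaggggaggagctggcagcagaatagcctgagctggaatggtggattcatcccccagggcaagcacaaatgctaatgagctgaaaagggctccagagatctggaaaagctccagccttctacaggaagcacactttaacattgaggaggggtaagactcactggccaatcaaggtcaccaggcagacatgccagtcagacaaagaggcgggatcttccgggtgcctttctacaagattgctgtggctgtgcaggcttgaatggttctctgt
Gm46425: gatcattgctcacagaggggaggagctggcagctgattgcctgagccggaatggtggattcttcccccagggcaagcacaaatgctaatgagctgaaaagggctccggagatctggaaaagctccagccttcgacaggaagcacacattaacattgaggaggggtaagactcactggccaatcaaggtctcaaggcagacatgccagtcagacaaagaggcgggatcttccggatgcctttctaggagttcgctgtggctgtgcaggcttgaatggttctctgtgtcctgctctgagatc

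Chromosome 13 carried 6.90 peaks per Mb over the 117.3 Mb between its outermost peak or gene positions (3008718 and 120318261), against 4.70 per Mb on the 18 other autosomes pooled. The others ranged between 3.64 per Mb on chromosome 7 and 6.10 per Mb on chromosome 1, with a median of 4.59. The chromosome thus held 1.47 times the 551.1 peaks that its length would hold at the pooled density of the others, an excess of 257.9 peaks. It ranked 14th in gene density, with 7.07 protein-coding genes per Mb.

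The excess sat in few places. Of 118 bins of 1 Mb, the median bin held 4.5 peaks on chromosome 13, against 4 on the other autosomes. At the top, 4 bins held 20 or more peaks: 87 at 66 to 67 Mb, 56 at 23 to 24 Mb, 39 at 65 to 66 Mb and 35 at 21 to 22 Mb. Such bins made up 0.829% of the 2413 autosomal bins, 20 in all, and the highest of the other 16 held 105 peaks, at 20 to 21 Mb of chromosome 8. At the bottom, 2 bins without a peak (1.70%) stood on chromosome 13, against 149 of 2295 (6.49%) on the other autosomes. With its own 9 densest bins left out of every autosome, chromosome 13 kept 4.74 peaks per Mb, against 3.98 on the others pooled, and came after chromosome 1 at 5.37. Runs of 6 or more peaks, with gaps of up to 10 kb, were also left out of every autosome. Chromosome 13 then stayed densest at 5.77 per Mb, against 5.72 on chromosome 1 and 4.49 on the others pooled.

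**Figure D1:**
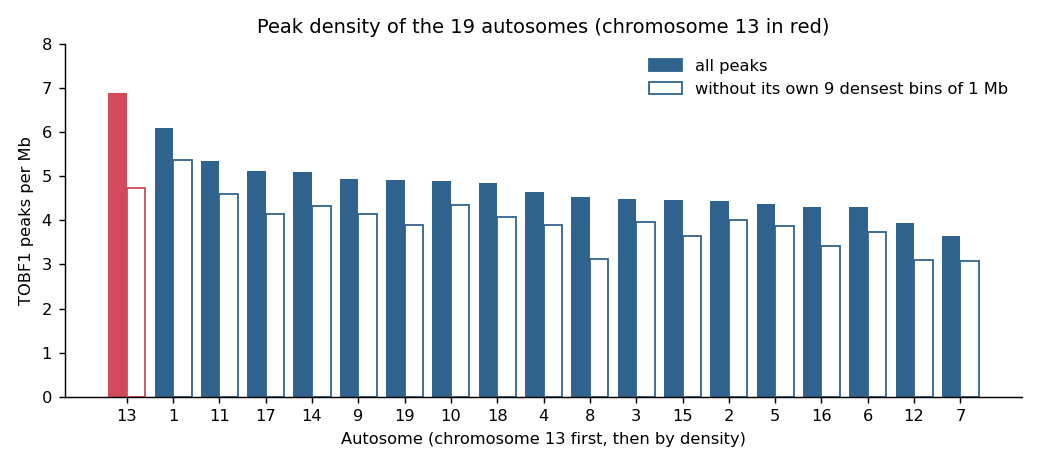
TOBF1 peaks per Mb (vertical axis) on each of the 19 autosomes (horizontal axis, chromosome 13 first and then by density), for all peaks (filled bars) and without each autosome's own 9 densest bins of 1 Mb (open bars). Chromosome 13 stands highest with all peaks, at 6.90, and at 4.74 it comes after chromosome 1, at 5.37, without those bins.

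**Figure D2:**
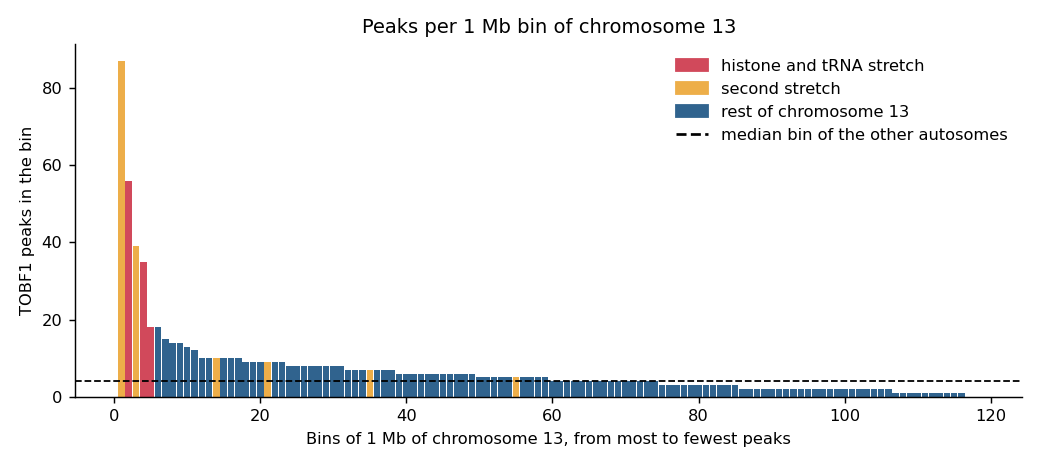
Peaks in each of the 118 bins of 1 Mb of chromosome 13 (vertical axis), ordered by count (horizontal axis) and coloured by part: the histone and tRNA stretch is 21 to 24 Mb and the second stretch is 62 to 68 Mb. The 4 highest bins, 87 to 35 peaks, lie in these stretches, and most other bins stand near the dashed line, the median of 4 peaks on the other autosomes.

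Together the stretches at 21 to 24 Mb and 62 to 68 Mb held 266 peaks on 7.67% of the length, or 32.9% of the chromosome's peaks (29.6 to 36.2%), against 42.3 at the density of the other autosomes. This was 86.8% of the excess. The remaining 108.3 Mb held 543 peaks, 5.01 per Mb, against 4.70 on the other autosomes, and 4 autosomes were denser than that. The other autosomes kept their own dense parts in this comparison. The excess of the remaining part, 34.1 peaks, was 13.2% of the whole. These parts of the excess were counted with all peaks only, and weak peaks weigh in them. Among peaks that reached the list's median score, the remaining part stood at 1.14 times the density of the other autosomes, against 1.07 with all peaks. The stretches then held 6.46% (21 to 24 Mb) and 17.3% (62 to 68 Mb) of the chromosome's peaks.

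In blocks of 10 Mb, the density outside both stretches lay between 2.75 per Mb (60 to 70 Mb) and 8.20 per Mb (90 to 100 Mb), apart from the distal tip. Blocks from 10 to 60 Mb held 4.40 to 5.30 per Mb outside the stretches, and those at 70 to 80, 80 to 90, 100 to 110 and 110 to 120 Mb held 3.50, 4.50, 3.80 and 3.80. The first 7 Mb with peaks or genes, up to 10 Mb, held 8.01 per Mb. With the stretches included, the chromosome was densest at both sides and at 20 to 30, 60 to 70 and 90 to 100 Mb.

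**Figure D3:**
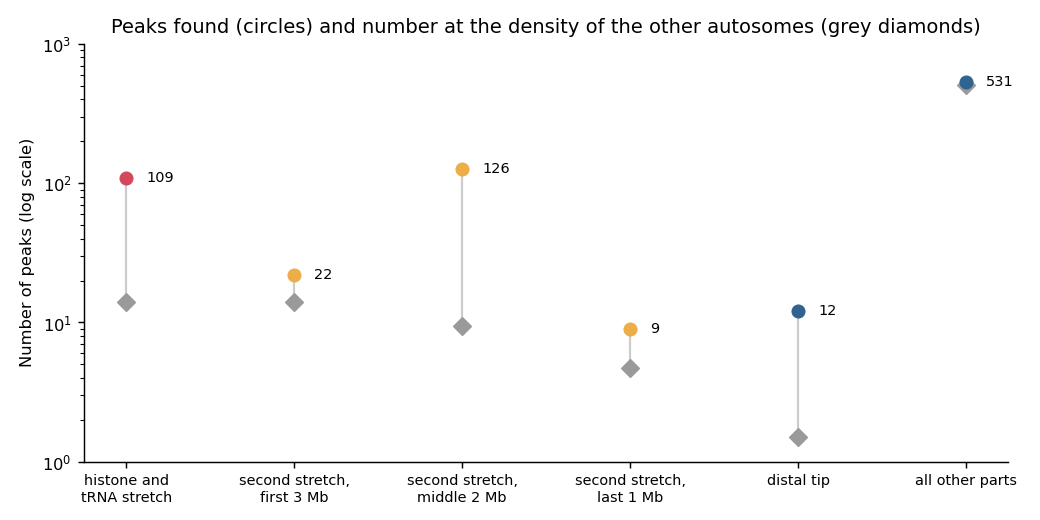
Number of peaks found (circles, labelled) in 6 parts of chromosome 13 and number that the pooled density of the 18 other autosomes gives for the same length (grey diamonds), on a log axis. The middle 2 Mb of the second stretch (126 peaks) and the histone and tRNA stretch (109) stand farthest above their diamonds in peaks, while the 531 peaks of all other parts lie close to the 507.4 of their diamond.

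The histone and tRNA stretch held 109 peaks, 36.3 per Mb, against 14.1 peaks at the density of the other autosomes. It gave 13.5% of the chromosome's peaks (11.2 to 16.0%) and 36.8% of its excess. Its peaks were weak: their median score was 5.99, against 10.7 in the rest of chromosome 13 outside both stretches and 10.0 on the other autosomes. The score is read as −log10 of a q-value, so a higher score is a stronger call. Only 1 of the 109 (0.917%) was among the strongest 10% of autosomal peaks, which began at a score of 36.4, against 49 of 543 (9.02%) in the rest of chromosome 13 and 10.2% on the other autosomes.

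Most of these peaks stood at histone genes. Within 1 kb of a gene lay a histone gene alone for 70 peaks (64.2%), a tRNA gene alone for 16, both for 1 and neither for 22. Peaks fell in a pair of dense blocks, with 42 between 21.6 and 22.2 Mb and 52 between 23.4 and 23.8 Mb, and 14 in the 1.2 Mb between them. Gene content moved with this count, since chromosome 13 held 55 of the 65 histone genes of the autosomes (84.6%), and the part of gene number in the excess was not tested.

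Of the 55 replication-dependent histone genes, 49 (89.1%, 77.8 to 95.9%) carried a peak at an end, which here means up to 1 kb to either side of it. Counting peaks anywhere inside the gene or up to 10 kb away gave 53. Over all autosomal protein-coding genes these shares were 2.8% and 22.5%. When peaks below the list's median score were left out, 10 of the 55 had an end peak. By type, 5 of 6 H1 genes had an end peak, 13 of 15 H2A, 12 of 14 H2B, all 9 H3 and 10 of 11 H4. The highest score at an end was 22.6, at H1f5 (chr13:21779832-21780625, linker histone H1). H1f1 and H1f3, also linker histones, followed at 12.4 each. The core histone genes H2ac7 and H2bc7 shared a peak of 11.9, and H4c9 had 11.0. A peak of 10.7 lay 243.5 bp downstream of H2ac15 and, within 1 kb of its neighbour H2bc15, counted for both. The peak on the printed H2bc15 window, between these genes' starts, scored 7.29. Because these genes lie within a few kb of each other, 1 peak often counted for a pair.

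The 4 runs of 6 or more peaks in the stretch, with gaps of up to 10 kb, all followed histone genes. The longest, chr13:23531172-23585440, held 25 peaks in 54.3 kb and touched 15 genes, among them H3c8, H1f3, H2bc7 and H4c4. The others held 11 peaks (chr13:23739415-23763915, with H1f1, H1f2, H3c1 and H4c1), 9 (chr13:21715683-21735794, with H3c10 and H4c11) and 7 (chr13:21779439-21790771, with H1f5 and H3c11).

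Peaks sat on or after these genes more often than before them. For the 50 histone genes with a known strand, whose median length was 487 bp, 69 peaks had their midpoint in the gene or within 1 kb. Of these, 29 (42.0%, 30.2 to 54.5%) lay inside the gene, 33 (47.8%, 35.7 to 60.2%) downstream and 7 (10.1%, 4.18 to 19.8%) upstream. Median scores were 6.79 inside, 5.53 downstream and 4.90 upstream, and the strongest, 22.6, was downstream. Of the peaks inside, 4 lay in gene models longer than 5 kb (H2bc22 and H2bc6), among them the strongest inside, 13.3. These positions are measured to the nearest of the 50 genes, and a site downstream of a gene could lie upstream of its neighbour. Histone genes without a known strand were left out, which bears on the upstream count. The upstream peaks of H2bc9 and H2ac6 lay inside the left-out genes H3c7 and H2bc4. Those of H4c1 and H3c3 lay nearer to the left-out H3c1 and H2ac5-ps. The places also differ in length, and the upstream space between divergent neighbours such as H2ac15 and H2bc15 is short.

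**Figure D4:**
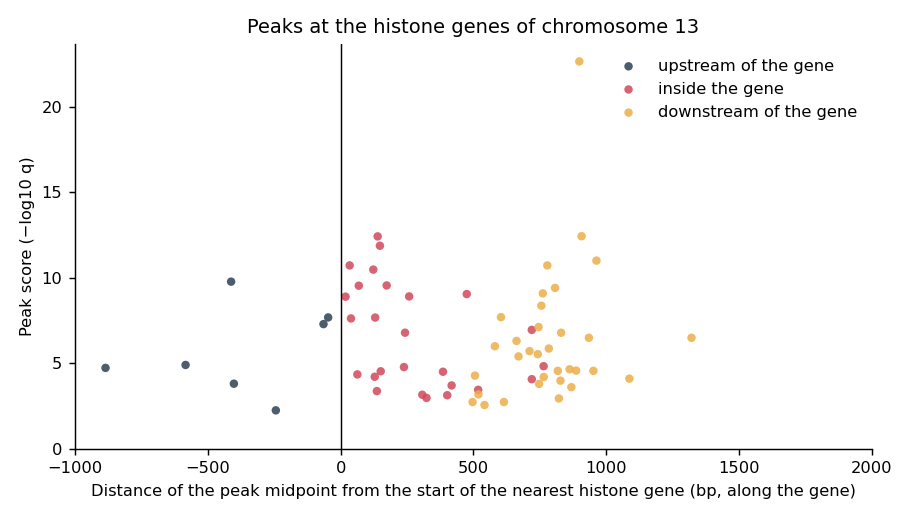
Score of each peak (vertical axis, −log10 q) against the distance of its midpoint from the start of a histone gene, in bp along the gene (horizontal axis). The gene is the nearest with a known strand, and 66 of 69 peaks fall within the axis. Points gather just after the start and again between about 500 and 1000 bp, past the end of most histone genes, with few to the left of the start.

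Peaks overlapped promoter windows of histone genes more often than other windows. A peak overlapped 20 of the 51 histone windows (39.2%) and 14 of the other 1476 windows of chromosome 13 (0.949%), against 0.605% of all 31396 autosomal windows. In the printed windows the peak covered all 300 bases of H2bc15 and 224 of H3c8, including the start. Short motifs were looked for on both strands and anywhere in the window. Windows of divergent pairs such as H2ac15 and H2bc15 overlap, so the same site can count in both. TATAAA, the letters of the TATA box, was in 15 of the 20 histone windows with a peak and 16 of the 31 without, against 13.6% of all windows. Its place varied, such as 26 bases before the start in H1f3, 147 in H3c11 and 209, on the opposite strand, in H2bc7. The count thus does not show a TATA box at a fixed place. The peak covered a whole TATAAA only in the windows of H1f3, H2ac15 and H2bc15. The CCAAT box CCAAT was in 18 of 20 and 25 of 31, against 37.3% of all windows. The octamer ATTTGCAT, the motif that Oct-family factors bind, was in 5 of 20 and 6 of 31, against 1.75% of all windows. In none of the 5 did the peak cover the whole octamer, and the overlapping windows of H2ac8 and H2bc8 hold the same octamer. None of the 3 motifs contains another, and a match is not a bound site.

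Of 105 tRNA genes on chromosome 13, 23 (21.9%, 14.4 to 31.0%) had a peak within 1 kb, against 31 of 281 (11.0%, 7.62 to 15.3%) on the other autosomes and 14.0% of all autosomal tRNA genes. The intervals of the first shares overlap slightly. Only 17 peaks served these 23 genes, and none had its midpoint inside a tRNA gene. The highest score was 12.8, at n-TIaat10 (an isoleucine tRNA gene), followed by 12.4 at n-TStga2 (serine) and 11.6 at n-TDgtc12 (aspartate) and n-TSaga8 (serine). Serine tRNA genes had an end peak in 5 of 12 cases, alanine and methionine in 4 of 12 and 4 of 11, and lysine, leucine, threonine and tyrosine in 0 of 5, 7, 7 and 6. Chromosome 13 held 27.2% of the 386 autosomal tRNA genes.

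The 22 peaks near neither kind scored higher, with a median of 12.02, against 5.53 at histone genes alone and 5.00 at tRNA genes alone. The strongest of the stretch (37.4, chr13:23491972-23492277) lay 3.27 kb from Btn2a2, a butyrophilin gene. Next came 32.6 (chr13:22192770-22193071), 4.87 kb from Vmn1r192, 30.1 near the pseudogene Vmn1r-ps125 and 25.1 near Vmn1r-ps114. Of the 75 vomeronasal type 1 receptor genes and pseudogenes of the list, 4 (5.33%, 1.47 to 13.1%) had a peak at an end (Vmn1r-ps114, Vmn1r208, Vmn1r210 and Vmn1r223) and 18 (24%, 14.9 to 35.3%) had one within 10 kb, and both intervals include the shares of all autosomal protein-coding genes.

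The second stretch held 157 peaks, 26.2 per Mb, against 28.2 peaks at the density of the other autosomes. It gave 19.4% of the chromosome's peaks (16.7 to 22.3%) and 50.0% of the excess. Of the 157, 8 (5.10%, 2.23 to 9.79%) were in or within 1 kb of its 31 genes with a zinc finger symbol, and 14 within 10 kb. For its 77 protein-coding genes, 34 peaks (21.7%) were in or within 1 kb. The length that these genes cover and the same shares over all autosomal peaks were not counted. Genes known only by Gm or Rik symbols carry no family in the gene table, so an unnamed zinc finger gene would be missed.

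The peaks gathered between 65 and 67 Mb, where 126 stood at 63.0 per Mb, against 9.40 peaks at the density of the others. That 2 Mb gave 45.2% of the excess and held only 2 genes with a zinc finger symbol, beside 40 pseudogenes, 13 of them of vomeronasal type 2 receptors, 17 long noncoding RNA genes and 24 protein-coding genes. The 3 Mb before it held 22 peaks and 4 zinc finger genes, and the 1 Mb after it held 9 peaks and 25 zinc finger genes. Most named zinc finger genes of the stretch thus lay outside its densest 2 Mb.

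Within 65 to 67 Mb, 55 of the 126 peaks (43.7%, 34.8 to 52.8%) were within 1 kb of a gene of any type. Long noncoding RNA genes had 29 peaks within 1 kb, protein-coding genes 20, pseudogenes 13 and vomeronasal type 2 receptor pseudogenes 4. The same shares over all autosomal peaks were not counted. The densest part, 66.25 to 66.75 Mb, held 72 peaks at 144.0 per Mb. In the bin at 66 Mb, 15 peaks had 2410141K09Rik as their nearest gene within 10 kb, and 8 had the pseudogene Gm18260.

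Of the 7 runs here, the longest (chr13:66411624-66460320) held 21 peaks in 48.7 kb, touched 2410141K09Rik and Gm26715 and reached a score of 50.8. Another of 14 peaks (chr13:66291713-66322562) reached 65.2 by Gm18260, and 7 peaks at chr13:65980691-65996181 reached 61.0 by Gm40987. The runs at 65620397 to 65632066 (7 peaks) and 66625341 to 66630160 (6 peaks) touched no gene. The run at 66588708 to 66593841 (7 peaks, highest score 11.0) touched Gm45966, and the last (6 peaks, highest 34.5) lay at Zfp459, the zinc finger gene with the most peaks within 10 kb. Runs took up 132 peaks of chromosome 13 (16.3%) in 12 places, against 472 (4.40%) in 51 places on the other autosomes.

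Scores here were higher than at the histone genes, with a median of 8.76 and 15 of 157 peaks (9.55%) in the strongest 10%. The strongest was 123.4 (chr13:66710793-66711453), over an end of the noncoding gene Gm40988. Next came 81.8 at 65491704 to 65492310, 19.9 kb from the nearest gene, and 69.3 at 65830718 to 65831178, 19.3 kb from Gm40986. At protein-coding ends stood 9 of the 157 (5.73%), against 72 of 109 (66.1%) in the histone and tRNA stretch.

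Near-copies were found among the promoter windows of this region. The 2410141K09Rik window shared a run of 30 bases with 15 other windows of 14 genes. All lay between 65348545 and 66753262 on chromosome 13, although 31396 autosomal windows were searched. The 10 in the same orientation, among them that of the zinc finger gene Zfp640, had 256 to 277 of 300 bases identical to it in a global alignment (85.3 to 92.3%). Peaks did not cover these copies alike. With 2410141K09Rik, 2 of the 11 windows in this orientation were overlapped, 2410141K09Rik at a score of 29.6 and Gm45966 at 3.12, each at its far upstream edge, with peak midpoints at -385.5 and -343.5 bp from the start. Gm46425, with 276 of 300 identical bases, had no peak within 10 kb, and 7 of the 11 had one. Gm40987, printed above, shared no such run but had 182 identical bases, the third highest of 1511 other windows of chromosome 13, whose median was 158. How reads from near-identical copies were placed is not given in the sources used here, and its part in these counts was not tested.

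Among named zinc finger genes of the whole chromosome, 2 of 46 had an end peak, Zfp640 (6.35) and Zfp459 (5.69), and 12 had one within 10 kb. The highest were 47.7 near Zfp808 and 47.3 in Zfp934. These shares, 4.35% (0.531 to 14.8%) and 26.1% (14.3 to 41.1%), stood near the 2.8% and 22.5% of all autosomal protein-coding genes.

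Outside both stretches, the distal tip was densest. In the last 0.318 Mb, 12 peaks formed 1 run (chr13:120024923-120037771) at Gm36079 and Gm21188, with scores between 6.25 and 94.1, a median of 17.5 and 35.0% of the run covered. That gave 37.7 per Mb and 4.07% of the excess. The 3 to 6 Mb part held 34 peaks, against 14.0 at the density of the others, in the neighbourhood of Akr1c genes, which encode aldo-keto reductases of steroid metabolism, and of Klf6, a zinc finger transcription factor. The bin at 97 Mb held 18 peaks, 4 of them closest to Enc1, an actin-binding protein gene, and 4 to its noncoding neighbour Lncenc1. Fam169a, in the same bin, had the printed window with a peak of 24.8. The bin at 90 Mb held 15 peaks, 3 of them closest to the ribosomal protein gene Rps23. The bin at 50 Mb held 13.

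The strongest peak of chromosome 13 was also the strongest of all autosomes, with a score of 216.1 at chr13:6922334-6922744. It lay far from genes, 73.1 kb from the noncoding gene Gm40662 and 273.5 kb from Pfkp, which encodes a phosphofructokinase of glycolysis. After Gm40988 at 123.4 came 118.6 inside Cdyl (chr13:35853189-35853516), a chromodomain protein that acts in gene repression. A score of 95.4 stood in the noncoding gene Gm33489, 94.1 in Gm21188 at the tip, 91.9 at 39.1 kb from the mismatch repair gene Msh3, and 90.8 at 20.3 kb from the tyrosine kinase gene Syk.

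Among the other strong peaks, 85.04 (chr13:73099421-73099871) lay 33.4 kb from the noncoding gene Gm30154, and 73.4 lay 3.90 kb from Gm32351. A peak of 76.8 lay 1.48 kb from Il6st, which encodes gp130, the receptor subunit through which LIF signals. A peak of 72.3 lay 25.2 kb from Jarid2, a subunit of Polycomb repressive complex 2, and a peak of 76.5 lay in the noncoding gene A330033J07Rik, 100.7 kb from Id4, an inhibitor of helix-loop-helix factors. Inside protein-coding genes stood 79.4 in Slc22a23, a transporter-like gene, 71.5 in Cap2, an actin regulator, and 64.9 in Ryr2, the calcium release channel of heart muscle. The pseudogene Gm11392 held a peak of 68.3 and the noncoding gene 1700037F03Rik held 65.7.

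The 20 strongest peaks had scores of 64.9 and above. Of them, 16 lay outside both stretches, 4 between 62 and 68 Mb and 0 in the histone and tRNA stretch. These parts held 67.1%, 19.4% and 13.5% of all chromosome 13 peaks. None of the 20 was within 1 kb of an end of a protein-coding gene, against 12.6% of all chromosome 13 peaks and 3.87% of those outside both stretches. Inside such a gene were 5, and 14 were more than 10 kb from any. These shares were not counted over all peaks, so they do not show whether the strongest peaks differ from the others. Chromosome 13 had 6 of the 100 strongest autosomal peaks, while it held 7.01% of all autosomal peaks.

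**Figure D5:**
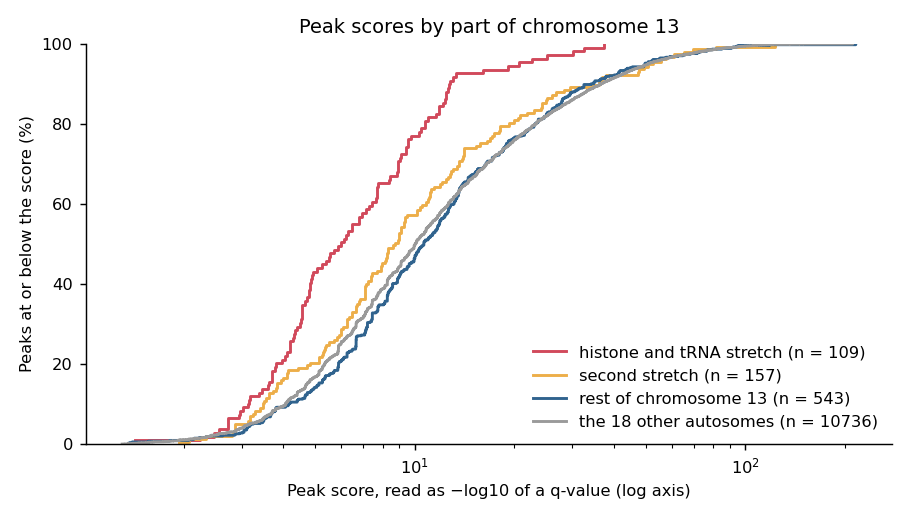
Cumulative share of peaks (vertical axis, %) at or below each score (horizontal axis, log scale, −log10 q) for the parts of chromosome 13 and the 18 other autosomes. The curve of the histone and tRNA stretch (109 peaks, median 5.99) lies left of the others, that of the second stretch (157, median 8.76) lies between, and that of the rest of chromosome 13 (543, median 10.7) runs close to the other autosomes (10736, median 10.0).

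Over all 809 peaks the median score was 9.37 (quartiles 5.89 and 17.1), against 10.0 (5.98 and 19.5) on the other autosomes. Widths were alike, with medians of 216 and 215 bp. Of chromosome 13 peaks, 65 (8.03%, 6.26 to 10.1%) were in the strongest 10%, against 10.2% (9.61 to 10.8%) on the other autosomes. Another peak stood within 10 kb for 41.9% of chromosome 13 peaks and for 25.2% of those outside both stretches, against 30.1% on the other autosomes.

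Peaks at gene ends were more frequent on chromosome 13, at 102 of 809 (12.6%, 10.4 to 15.1%), against 5.03% (4.62 to 5.46%) on the other autosomes. Among peaks that reached the list's median score the share was 4.65%, against 3.20%, and with peaks within 1 kb merged it was 7.78%, against 4.43%. It was 6.50%, against 4.64%, without runs of 6 or more peaks, 22.3%, against 18.4%, with ends reaching 5 kb, and 20.4%, against 9.56%, with genes of every type. With histone genes left out of the gene set but the peaks at them kept in the total, 34 of 809 (4.20%) were at an end. The share of the other autosomes was not recomputed in this way. Outside both stretches the share was 3.87% (2.41 to 5.85%). By gene, 74 of 829 protein-coding genes (8.93%) had an end peak, against 2.54% on the other autosomes, but 48 of them were histone genes. Outside both stretches, 16 of 625 genes (2.56%, 1.47 to 4.12%) had one, a share whose interval includes the 2.54% of the other autosomes.

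Those 16 were mixed in kind. The strongest was Pxdc1 at 43.4, then Fam169a at 24.8 and Gm21188 at 23.7. Others were Eif4e1b (8.96), a relative of the cap-binding translation factor eIF4E, Rps23 (8.10), Klf6 (7.13), Cenph (3.80), a kinetochore protein gene, and Cox7c (3.17), a subunit of cytochrome c oxidase. Of long noncoding RNA genes, 30 of 695 on chromosome 13 (4.32%, 2.93 to 6.11%) had an end peak, against 2.67% on the other autosomes and 2.77% of all. They include the noncoding genes with the highest end scores after Gm40988 and Gm40987: Gm33763 (52.6, 5.34 kb from the homeobox gene Msx2), C130071C03Rik (52.6), Gm52029 (41.8), Gm35333 (29.2) and Gm32242 (28.6). The pseudogene H2af-ps2 had 34.8.

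Of 20 genes of ES cell regulation and growth, 1 had an end peak (Klf6; 5.00%, 0.127 to 24.9%, against 2.8% of all autosomal protein-coding genes), and 9 (45.0%, 23.1 to 68.5%) had one within 10 kb. All protein-coding genes of chromosome 13 had 31.0%, within that interval, and all autosomal ones had 22.5%, just below it. The list was chosen with results of these data known, so this is a description. Jarid2 had 5 peaks within 10 kb, up to 49.3, and Spin1, a reader of histone methylation, had 3, up to 43.9. Nsd1, a histone H3 methyltransferase, had 1 of 21.5, Cdk7, a kinase of the cell cycle and of transcription, 1 of 14.1, Dek, a chromatin protein, 1 of 5.72 and Ccnb1, cyclin B1, 1 of 3.80.

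Of 23 developmental regulators, none had an end peak (0 to 14.8%), and 3 (13.04%, 2.78 to 33.6%) had one within 10 kb. Both intervals include the shares of all autosomal protein-coding genes, 2.8% and 22.5%. The 3 were Msx2 (52.6), Ptch1, the Hedgehog receptor, with 3 peaks up to 36.0, and Id4 with 2 up to 27.9. Among other clustered families of the chromosome, none of the 25 prolactin family genes, which encode placental hormones, had a peak within 10 kb (0 to 13.7%, against 22.5% of all autosomal protein-coding genes). Of 17 Serpinb protease inhibitor genes, 4 had one (23.5%, 6.81 to 49.9%), up to 18.04 at Serpinb9b, and of 8 placental cathepsin genes 1 had one (12.5%, 0.316 to 52.7%), Cts6 (29.1), and both intervals include that share. None of these had a peak at an end, where the share over all such genes was 2.8%. By gene, 89.1% of the histone genes thus had a peak at an end, against 0% of the prolactin, Serpinb and cathepsin genes. The intervals of the last families, up to 13.7%, 19.5% and 36.9%, include the 2.8%. The ribosomal protein list held Rps23, which had an end peak, and the pseudogene Rps3a3, which had no peak within 10 kb.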

How the data were processed

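TOBF1 peaks were taken from the BED list the authors deposited, with a name and 1 score for each region. The submitters' processing notes name cutadapt, Bowtie2, MACS2, bedtools and the mm10 build. Their settings, the role of the input and the treatment of reads with several matches were not given in the sources used here. A −log10 q-value is what the authors' deposited score was taken to be, since the lowest, 1.30, equals −log10 of 0.05. It depends on depth and local background, so it was used only to rank, filter and describe peaks within the list. Read depth is unknown.

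Starts were changed to count from 1. Peaks were placed by midpoint and set beside RefSeq genes of GRCm38.p6, which shares mm10 positions. In all, 333 rows of the gene table on unplaced scaffolds were left out, none on chromosome 13. Length ran between the outermost peak or gene, and a gene end reached 1 kb to either side. Shares have exact Clopper-Pearson 95% intervals. No test was made, because there was 1 library and density had chosen the chromosome. Members, parts and the 10 gene lists were chosen with earlier results of these data known. Names were drawn from the 20 strongest peaks, the runs, the 10 densest bins, list members with peaks (up to 10 at an end and 10 more nearby) and the 10 genes with the highest end scores, not all of which are given, and other names were chosen after their values were seen. Scripts ran in Python 3.11.15 with NumPy 2.4.6, SciPy 1.17.1, pandas 2.3.3, Biopython 1.88 and matplotlib 3.10.9, and were tested on simulated data. Alternatives concerned the score, merging, length, windows and dense runs.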

Additional observations from a re-analysis of the deposited data

How the results depend on the processing

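Of 39 alternatives, 23 moved a value by more than its counting interval or, for the count of histone genes, by over 1.5 times, and none reversed a direction between chromosome 13 and the other autosomes. With the stronger 50% of the whole list, split at its median score, the density was 3.30 per Mb (against 2.40 on the other autosomes), the histone stretch 6.46% of the peaks, the rest of chromosome 13 2.72 per Mb, the median score 17.6 (19.2), the gene end share 4.65% (3.20%) and with a neighbour 19.9% (15.1%), and 10 histone genes, in place of 49, had an end peak. With peaks within 1 kb merged, the density was 5.81 per Mb (4.32), the fold over the others 1.35, the stretches 9.69% and 16.3% of the peaks, the median score 10.6 (10.7), the end share 7.78% (4.43%) and the neighbour share 27.0% (20.2%). Without runs of 6 or more peaks, the fold was 1.29, the end share 6.50% (4.64%) and the neighbour share 30.6% (26.8%). Without the 9 densest bins of every autosome, a choice made after seeing the data, the fold was 1.19. The end share was 10.3% (2.46%) at 500 bp, 22.3% (18.4%) at 5 kb and 20.4% (9.56%) with genes of every type, and the neighbour share 36.0% (22.96%) at 5 kb and 68.9% (56.1%) at 50 kb. The fold was 1.49 with gene rows of scaffolds kept, also added later. No paired analysis was possible because there was 1 library with a peak list. Limits: depth, replicates and the input are missing, so weak peaks, above all those at histone genes, have no independent check, and the cause of each move was not tested. Strand was known for 50 of 55 histone genes, and no gene model with exons was used.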
